A study of Rattus norvegicus with 17 samples.

Results

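Genes of the classical transcription factor families were followed in whole rat hippocampus at 3 laboratories. A gene belonged to the set when its symbol began with 1 of 22 family prefixes, such as Zfp, Sox, Klf, Tbx or Pax, and when it was not at exactly 0 in every library. Of 45 identifiers with such a symbol, Zfp536 was left out as a hippocampal region marker, and Foxb2, Nkx1-1 and Nkx2-6 were at 0 in all 17 libraries. This left 41 members among 22664 genes tested, from 13 of the 22 prefixes, and 28 of them reached a mean approximate CPM of at least 1. Symbols were available only for genes that the study had listed as nearest to CpG sites with a methylation difference between sites, which covered 1436 of the tested genes. The set is therefore a part of each family and had already been linked to differing CpG methylation: 23 members came from the list of Site #1 vs Site #2 only, 15 from that of Site #1 vs Site #3 only, and 3 from both. The latter list was available only in part, and that of Site #2 vs Site #3 was not used. A member found in 1 list only may thus belong to others too. The prefixes also caught Paxbp1, Zfp36 and Zfp326, known mainly for other roles, and the pseudogene Zfp780b-ps1. These 4 are kept and marked where they appear.

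Transcription factors bind short DNA sequences and set the rate at which nearby genes are transcribed. C2H2 zinc finger proteins form the largest such family in mammals, and many of its genes lie in clusters of related copies. Sox, Klf, Nkx, Irf and nuclear receptor genes are known for more limited roles, for example Sox9 in astrocytes, Irf8 in microglia, Nkx6-2 in oligodendrocytes and Klf2 in the endothelium. Most T-box and paired box genes act in the embryo and are scarcely transcribed in adult brain.

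All 17 rats were untreated wild-type male SAS Sprague Dawley animals, and each library came from the entire hippocampus of 1 rat. Site #1 gave 5 libraries and Site #2 gave 6, from rats of Charles River that were 8.3 weeks old at arrival, were killed 18 to 19 days later and were dissected in saline. Site #3 gave 6 libraries, from rats of Harlan (Envigo) that were 8 weeks old at arrival, were killed after 27 days and were dissected in bubbled artificial cerebrospinal fluid. Vendor, age, diet, housing and buffer thus change together at Site #3, and their parts cannot be told apart. In whole tissue, fewer cells of a type and less RNA per cell cannot be told apart either.

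The deposited values are on a log2 scale, already normalized between libraries, and keep no counts, so the depth behind a value is unknown. They are not corrected for gene length, and members are therefore not ranked by abundance. The approximate CPM is 2 raised to the deposited value, scaled to the same sum in each library. The step that made the values is not named. Low values lay close together: genes under 1 CPM had a median SD within sites of 0.011 log2 units, against 0.084 at or above it. Pax3 ran only from -1.77 to -1.75 over the 17 libraries. A step that draws low or uneven values together, as the regularized log of DESeq2 does, affects log2 differences, percent changes and approximate CPM alike. How far this holds here was not tested. The neuron markers Gad2, Grin1 and Pfkp lay between 13.40 and 14.69 on the deposited log2 scale in every library. In addition, 4 libraries stood apart by fibroblast genes (Col1a1, Col6a3, Fmod, Slc22a6), whose mean centred log2 value was 0.86 to 1.39 in them and -0.53 to 0.04 in the other 13. They were Site #1 replicate 5, Site #2 replicate 3 and Site #3 replicates 1 and 2. F5, a choroid plexus gene, was at 12.04 on the log2 scale in 1 Site #3 library and no higher than 5.76 at the other sites.

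Zfp94, a C2H2 zinc finger gene on chromosome 1, was the member with the largest difference between any pair of sites, and its promoter is shown because it carries 1 short element 3 times. The sequence is that of RefSeq, build GRCr8, chr1:89007466-89007765 on the minus strand, from 250 bases before to 50 bases after the start of the gene. Capitals mark the element TTCTGGGAA.
Zfp94 promoter: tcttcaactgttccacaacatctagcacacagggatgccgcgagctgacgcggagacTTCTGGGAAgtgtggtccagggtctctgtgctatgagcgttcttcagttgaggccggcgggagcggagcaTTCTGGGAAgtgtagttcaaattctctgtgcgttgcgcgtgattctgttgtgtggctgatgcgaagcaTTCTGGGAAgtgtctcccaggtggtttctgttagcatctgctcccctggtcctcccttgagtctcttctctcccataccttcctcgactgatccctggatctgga

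The element was chosen after this promoter had been seen. Searched on both strands, TTCTGGGAA occurred in 1.26% of the 27457 genes with a promoter in the table, at least 2 times in 9 of them and at least 3 times in 1, which is Zfp94. A promoter was found for 30 of the 41 members, and none of the other 29 held the element. In GRCr8, Zfp94 lies in a run of zinc finger genes that holds Zfp180, Zfp112, Znf235, Zfp111, Zfp108, Zfp61, Zfp94 and Zfp94l1 in this order, with other genes between them. The copies in this run are set side by side to show that they share bases beyond the capitals.
Zfp94 copy 1: ggagacTTCTGGGAAgtgtggt
Zfp94 copy 2: ggagcaTTCTGGGAAgtgtagt
Zfp94 copy 3: gaagcaTTCTGGGAAgtgtctc
Zfp112 copy 1: tgagaaTTCTGGGAAatgtagt
Zfp112 copy 2: cggaaaTTCTGGGAAgtgtagt
Zfp180 copy 1: tgagatTTCTGGGAAttgtagt
Znf235 copy 1: gagctaTTCTGGGAAttgtagt
Zfp61 copy 1: gcggaaTTCTGGGAActcatcg

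In every copy but that of Zfp61, the element is followed by a base that varies and then by tgt. A match is a run of letters and does not show that a factor binds there. Of general promoter motifs, the GC box GGGCGG was in 18 of the 30 member promoters, 60.0%, against 36.0% of all genes with a promoter. The CCAAT box CCAAT was in 46.7% of the member promoters against 39.6% of all, and the E-box CACGTG in 10% against 7.08%, while the cAMP response element TGACGTCA was in 0 of 30 against 2.00%. Each motif was searched on both strands. Members entered only through CpG sites that differed in methylation, whereas the genes with a promoter were not chosen in this way. The shares thus come from unlike sets, and the part of this choice in them was not tested. Of the 41 members, 13 lie on chromosome 1, which holds 12.5% of the RefSeq genes. Every member from the list of Site #1 vs Site #3, available only in part, lies on chromosome 1, 10, 11, 12 or 13. The share on chromosome 1 thus depends on which part was available, and it cannot be read as a trait of the families.

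Between Site #1 and Site #2, 0 of 41 members were DEGs at a Benjamini-Hochberg adjusted p under 0.05 in limma, as were 0% of the genes tested. At an unadjusted p under 0.05 there were 5 members, against 6.74% of all genes. Between Site #1 and Site #3, 0 of 41 members were DEGs, against 0.101% of all genes, and 5 had an unadjusted p under 0.05, against 8.17%. Between Site #2 and Site #3, 1 of 41 was a DEG, against 1.05%, and 9 had an unadjusted p under 0.05, against 14.8%. With Site #3 set against the mean of Sites #1 and #2, 1 member was a DEG, against 0.768%, and 8 had an unadjusted p under 0.05, against 12%. The DEG was Zfp94 both times. The last comparison uses the same libraries as the pairs, and each pair shares its libraries with another, so these counts do not support each other.

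**Figure D1:**
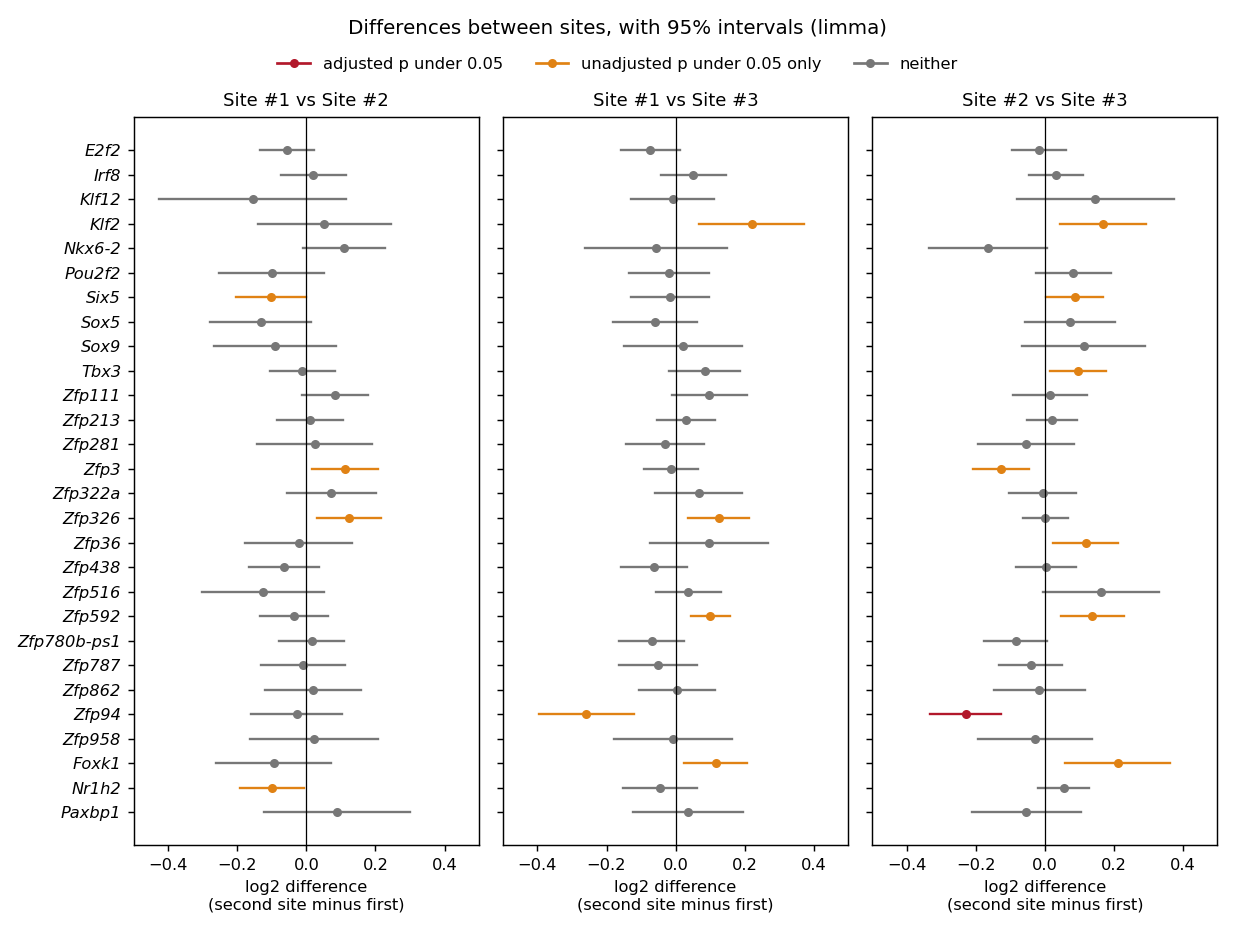
Difference in deposited log2 value (second site minus first) of the 28 members with a mean approximate CPM of at least 1, in the 3 pairs of sites, with 95% intervals from limma. Zfp94 in Site #2 vs Site #3 is the only one past the adjusted threshold (red), and members past an unadjusted p of 0.05 alone are orange.

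Differences were small. Over the 28 expressed members, the median absolute log2 difference was 0.07 between Sites #1 and #2, 0.05 between Sites #1 and #3 and 0.08 between Sites #2 and #3. Over all 13679 genes expressed at this level the same medians were 0.05, 0.04 and 0.06. The site means of these members spanned a median of 0.10 log2 units, against 0.08 over all such genes, and their median SD within a site was 0.081 against 0.084. Of the 28 members, 17 were higher and 11 lower at Site #3 than at Site #2, with a median log2 difference of 0.018, but this tilt was lost under quantile normalization (14 and 14, median -0.00063) and turned under median centring (13 and 15, median -0.0066). Site #3 had the highest mean of the 3 sites for 11 of the 28 members and the lowest for 8.

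**Figure D2:**
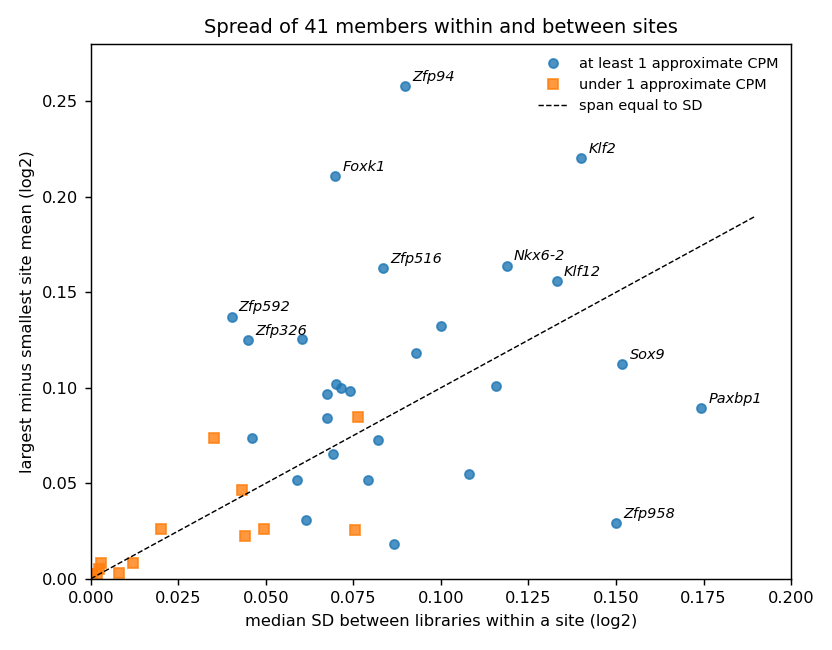
Largest minus smallest site mean against the median SD between libraries of a site for the 41 members, both in log2 units; circles are members with at least 1 approximate CPM and squares those below. Zfp94, Klf2 and Foxk1 have spans above 0.20, while Sox9, Zfp958 and Paxbp1 spread more within a site than their site means do.

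The prefix Zfp gave 16 members, 15 of them at or above 1 CPM, and the only DEG; Zfp36, Zfp326 and Zfp780b-ps1 are counted here by their prefix alone. Zfp94 (ENSRNOG00000019416) was at 10.23, 10.34, 10.48, 10.31 and 10.56 on the deposited log2 scale at Site #1. It ran from 10.24 to 10.43 with a median of 10.39 at Site #2. It ran from 10.01 to 10.25 with a median of 10.10 at Site #3. All but 1 Site #3 library lay below every library of the other sites.

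Zfp94 fell by 0.23 log2 units from Site #2 to Site #3, or 14.7% (SE 0.05 log2 units, n = 6 and 6, limma with Benjamini-Hochberg adjustment, adjusted p = 0.0430). Against the mean of Sites #1 and #2 it was lower by 15.5% at Site #3, a log2 difference of -0.24 (SE 0.05, limma adjusted p = 0.0310). From Site #1 to Site #3 the log2 difference was -0.26 (SE 0.06), which did not pass (limma adjusted p = 0.224). For Site #2 vs Site #3 it was lost when any 1 of Site #2 replicates 2, 3, 4 and 6 or of Site #3 replicates 1 to 5 was left out (limma adjusted p 0.0636 to 0.0923, log2 difference -0.25 to -0.20). For Site #3 vs the other sites it was lost without Site #1 replicate 3, Site #2 replicate 3 or Site #3 replicate 1, 3, 4 or 5 (limma adjusted p 0.05 to 0.0723). Beside these, 4 of 10 other alternatives ended the call for Site #2 vs Site #3 (no filter, the replicate block, 1 fit of all libraries, and both Site #2 replicates 3 and 4 left out; limma adjusted p 0.0759, 0.0746, 0.0532 and 0.159). For Site #3 vs the other sites, no filter and leaving out those 2 libraries did so (limma adjusted p 0.0596 and 0.0735). Zfp94 was lower at Site #3 than at the other sites in every alternative run.

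Zfp111, also a member and with 5 genes between it and Zfp94 in RefSeq, was not lower at Site #3. Its site means were 9.01 ± 0.06 (SD, n = 5), 9.09 ± 0.07 (n = 6) and 9.10 ± 0.10 (n = 6) on the log2 scale at Sites #1, #2 and #3. Zfp94l1, a gene of like name close to Zfp94, was not analysed here, and reads that match both genes would make the Zfp94 value uncertain.

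**Figure D3:**
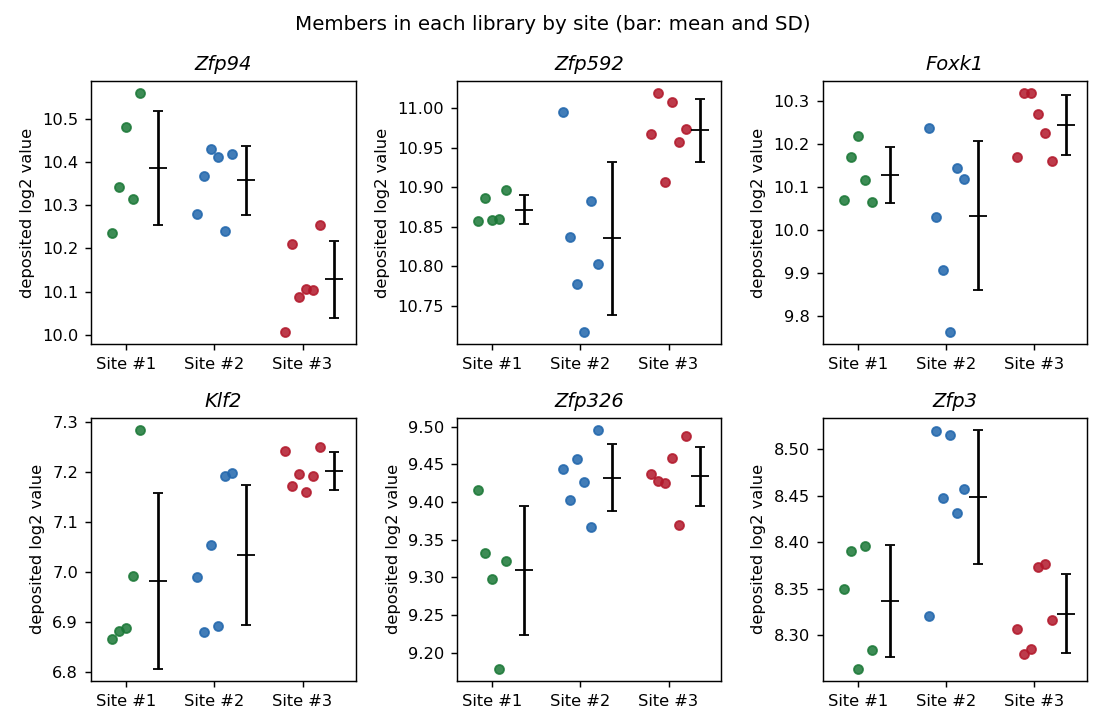
Deposited log2 value of 6 members in each library, by site; points are libraries in order of replicate number, and the bar beside them is the mean with 1 SD. The Site #3 libraries of Zfp94 lie between 10.01 and 10.25, and those of Zfp592 lie at 10.91 or more, above all 5 libraries of Site #1.

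Zfp592, whose product works with the chromatin reader ZMYND8 in a corepressor complex, was the only member with no overlap between 2 sites. It was at 10.86, 10.89, 10.86, 10.86 and 10.90 on the log2 scale at Site #1. It ran from 10.91 to 11.02 with a median of 10.97 at Site #3, above every Site #1 library. No overlap between these sites was found for 1.38% of all genes. The log2 difference was 0.10 (SE 0.03, limma unadjusted p = 0.0023, adjusted p = 0.260).

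At Site #2, Zfp592 was wider, from 10.72 to 10.996 with a median of 10.82 on the log2 scale. The log2 difference from Site #2 to Site #3 was 0.14 (SE 0.04, limma adjusted p = 0.138). Without Site #2 replicate 1, the library at 10.996, it was 0.17 with a limma adjusted p of 0.0379, and that against Sites #1 and #2 moved from 0.12 (adjusted p = 0.106) to 0.14 (adjusted p = 0.0233).

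Zfp3 and Zfp326 set apart a different site each. Zfp3 was at 8.35, 8.39, 8.26, 8.40 and 8.28 on the log2 scale at Site #1. It ran from 8.32 to 8.52 with a median of 8.45 at Site #2. It ran from 8.28 to 8.38 with a median of 8.31 at Site #3. All but 1 library of Site #2 lay above the other sites.

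The Zfp3 log2 difference was 0.11 for Site #1 vs Site #2 (SE 0.04, limma unadjusted p = 0.0255, adjusted p = 0.690) and -0.13 for Site #2 vs Site #3 (SE 0.04, limma adjusted p = 0.129). Without Site #2 replicate 1, the lowest library of that site, the latter was -0.15 with a limma adjusted p of 0.0445. Set against both other sites, Site #3 differed by -0.07 log2 units (SE 0.03, limma adjusted p = 0.414).

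Zfp326, a component of a complex that joins transcript elongation to splicing, was at 9.42, 9.33, 9.30, 9.18 and 9.32 on the log2 scale at Site #1. It ran from 9.37 to 9.496 with a median of 9.44 at Site #2. It ran from 9.37 to 9.49 with a median of 9.43 at Site #3. All but 1 Site #1 library lay below both other sites.

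The Zfp326 log2 difference was 0.12 for Site #1 vs Site #2 (SE 0.04, limma adjusted p = 0.660) and 0.12 for Site #1 vs Site #3 (SE 0.04, limma adjusted p = 0.385).

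Zfp819, with a mean under 1 CPM, was at 5.199, 5.18, 5.23, 5.25 and 5.16 on the log2 scale at Site #1. It ran from 5.25 to 5.32 with a median of 5.28 at Site #2, and from 5.14 to 5.25 with a median of 5.23 at Site #3. Site #2 was the highest, with its lowest libraries level with the top of the other sites. The log2 difference was 0.07 for Site #1 vs Site #2 (limma adjusted p = 0.690) and -0.06 for Site #2 vs Site #3 (limma adjusted p = 0.333).

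Zfp36 encodes tristetraprolin, which binds AU-rich elements and speeds the decay of cytokine transcripts, so it is no transcription factor. It was at 7.14, 7.42, 7.29, 7.35 and 7.63 on the log2 scale at Site #1. It ran from 7.30 to 7.39 with a median of 7.34 at Site #2. It ran from 7.35 to 7.62 with a median of 7.44 at Site #3. Both the lowest and the highest library of all 17 were Site #1 libraries.

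The Zfp36 log2 difference from Site #2 to Site #3 was 0.12 (SE 0.04, limma adjusted p = 0.212). Zfp780b-ps1, a pseudogene by its name, differed by -0.08 log2 units between Site #3 and the other sites (SE 0.04, limma adjusted p = 0.413).

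Zfp958 was at 7.59, 7.55, 7.63, 7.56 and 7.91 on the log2 scale at Site #1. It ran from 7.40 to 7.81 with a median of 7.72 at Site #2, and from 7.45 to 7.80 with a median of 7.66 at Site #3. The sites overlapped over nearly their whole ranges, and the SDs were 0.15, 0.15 and 0.13 at Sites #1, #2 and #3. Its smallest p was for Site #2 vs Site #3, with a log2 difference of -0.03 (limma adjusted p = 0.886).

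The other members of this group were Zfp213, Zfp281, Zfp322a, Zfp438, Zfp516, Zfp787 and Zfp862, beside Zfp111. Zfp516 had the widest site means of these, 8.39 ± 0.04 (SD, n = 5), 8.27 ± 0.19 (n = 6) and 8.43 ± 0.08 (n = 6) on the log2 scale. Zfp862 had the narrowest, 6.56, 6.58 and 6.57. None of these 8 reached an unadjusted p of 0.05 in any of the 4 comparisons in limma.

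**Figure D4:**
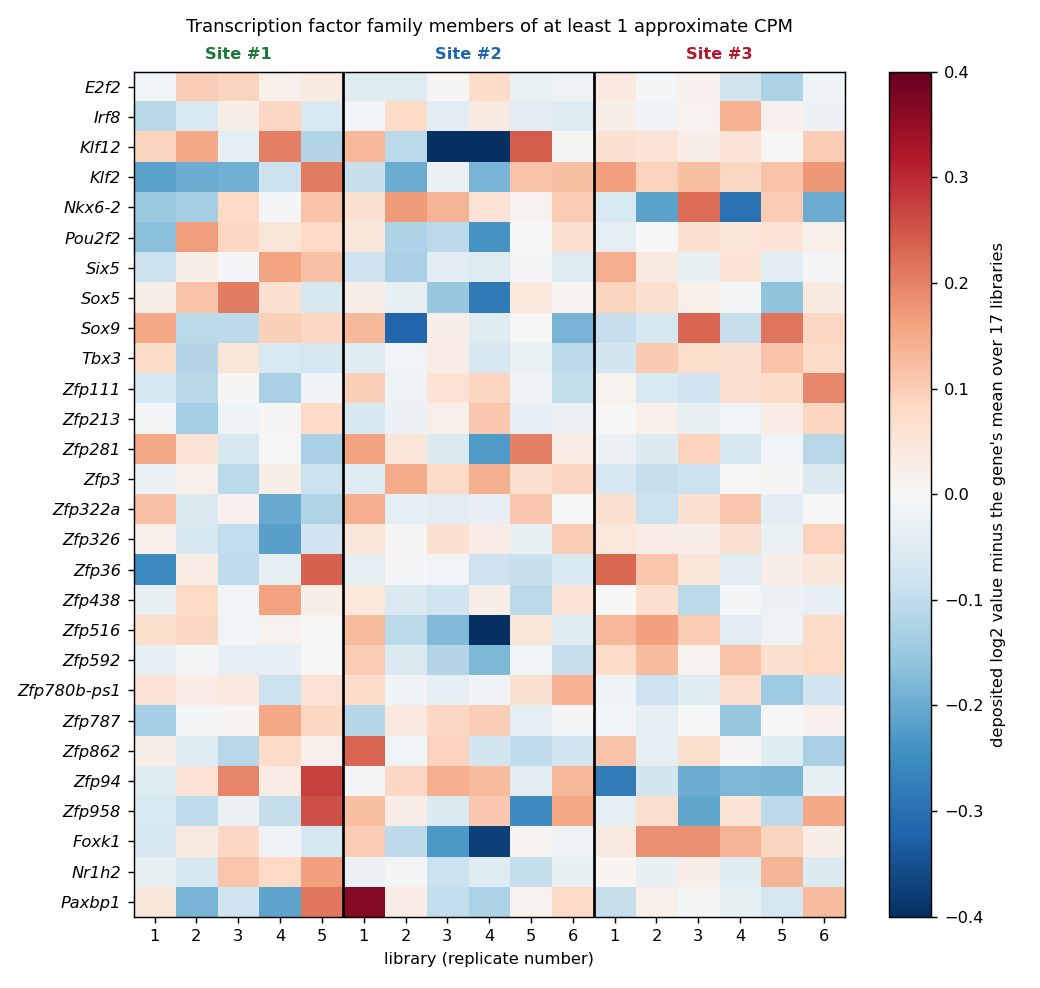
Deviation of the deposited log2 value from the mean over 17 libraries for the 28 members with at least 1 approximate CPM (rows) in each library (columns, by site and replicate number); red is higher and blue lower, and colours stop at the ends of the scale. Zfp94 is blue at Site #3, and Klf12, Zfp516, Foxk1 and Sox5 are dark in Site #2 replicate 4.

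Foxk1, the only forkhead member and a repressor known for its part in the control of autophagy and glycolysis, was at 10.07, 10.17, 10.22, 10.12 and 10.07 on the log2 scale at Site #1. It ran from 9.76 to 10.24 with a median of 10.07 at Site #2. It ran from 10.16 to 10.32 with a median of 10.25 at Site #3. Site #2 replicates 3 and 4 were the 2 lowest libraries of all.

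Foxk1 differed by 0.21 log2 units from Site #2 to Site #3, or 15.7% (SE 0.07, limma adjusted p = 0.175), by 0.12 from Site #1 to Site #3 (SE 0.04, limma adjusted p = 0.462), and by 0.16 between Site #3 and the other sites (SE 0.06, limma adjusted p = 0.213). With Site #2 replicates 3 and 4 left out, an alternative chosen after seeing the data, the log2 difference from Site #2 to Site #3 was 0.11.

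Klf2, a Kruppel-like factor induced by blood flow in the endothelium, was at 6.87, 6.88, 6.89, 6.99 and 7.29 on the log2 scale at Site #1. It ran from 6.88 to 7.197 with a median of 7.02 at Site #2. It ran from 7.16 to 7.25 with a median of 7.19 at Site #3. The Site #3 libraries were close together, and 1 Site #1 library was above them all.

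Klf2 differed by 0.22 log2 units from Site #1 to Site #3, or 16.5% (SE 0.07, limma adjusted p = 0.371), by 0.17 from Site #2 to Site #3 (SE 0.06, limma adjusted p = 0.187), and by 0.19 between Site #3 and the other sites (SE 0.06, limma adjusted p = 0.175). Without Site #1 replicate 5, the library at 7.29, the first was 0.30 (limma adjusted p = 0.0155) and the last 0.23 (limma adjusted p = 0.0359). In that library the mean centred log2 value of the 5 endothelial genes Flt1, Nos3, Esam, Plvap and Notch4 was also the highest of all, 0.22, and its fibroblast genes were high.

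The endothelial genes lay between -0.07 and 0.22 at Site #1, -0.15 and 0.02 at Site #2, and -0.0013 and 0.10 at Site #3 (mean centred log2 value), with 0 of 5 called in any pair in limma. From Site #2 to Site #3, 4 of the 5 were higher at an unadjusted p under 0.05, against 7.24% of all genes, and their median log2 difference was 0.14, beside the 0.17 of Klf2. Across the 17 libraries, Klf2 and this list had r = 0.67 and rho = 0.66 (permutation test, adjusted p = 0.010 and 0.016 over 6 relations). Within sites, on residuals from the site means, r was 0.80 (permutation test, adjusted p = 0.0010). Without the 2 libraries farthest from the median of the list, r was 0.56 (permutation test, adjusted p = 0.069), so the pooled relation rests in part on these. The part of endothelial RNA in the Klf2 difference between sites was not tested.

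Klf12, a Kruppel-like repressor, was the member with the most uneven libraries at Site #2. It was at 8.18, 8.25, 8.05, 8.29 and 7.98 on the log2 scale at Site #1. It ran from 7.65 to 8.33 with a median of 8.04 at Site #2, and from 8.09 to 8.19 with a median of 8.15 at Site #3. Its SD was 0.28 at Site #2 and 0.04 at Site #3, and the log2 difference between them was 0.15 (SE 0.11, limma adjusted p = 0.559).

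Site #2 replicate 4 gave the lowest value of 7 of the 28 expressed members (Foxk1, Klf12, Pou2f2, Sox5, Zfp281, Zfp516 and Zfp592), and of 13.8% of the genes at this level. Site #1 replicate 5 gave the highest value of 5 members (Klf2, Nr1h2, Zfp36, Zfp94 and Zfp958), and of 10.7% of the genes.

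Among the genes tied to glia, Irf8, a factor that myeloid cells and microglia depend on, was at 8.13, 8.18, 8.26, 8.32 and 8.18 on the log2 scale at Site #1. It ran from 8.19 to 8.32 with a median of 8.21 at Site #2, and from 8.22 to 8.38 with a median of 8.26 at Site #3. The sites overlapped widely, and the log2 difference between Site #3 and the other sites was 0.04 (SE 0.03, limma adjusted p = 0.690).

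Irf8 followed the 6 microglia markers of the study (Tmem119, C1qa, Csf1r, P2ry13, Selplg and Pycard) from library to library. Over 17 libraries r was 0.74 and rho 0.78 (permutation test, adjusted p = 0.0050 and 0.0023 over 6 relations), and r within sites was 0.76 (permutation test, adjusted p = 0.0013). Without the 2 libraries farthest from the median of the markers, r was 0.86 (permutation test, adjusted p = 0.00060). In the 6 libraries of Site #3 alone r was 0.99 and in those of Site #2 0.68, given as descriptions. Of the 6 markers, 0 were called in any pair in limma, against 0% to 1.05% of all genes. From Site #2 to Site #3, 5 were higher and 1 lower, with a median log2 difference of 0.18. From Site #1 to Site #3, 6 were higher and 0 lower, with a median of 0.07, and from Site #1 to Site #2, 2 and 4. At an unadjusted p under 0.05 in limma, 2 were higher at Site #3 than at Site #2, against 7.24% of all genes. Against Site #1 it was also 2, beside 3.76%.

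**Figure D5:**
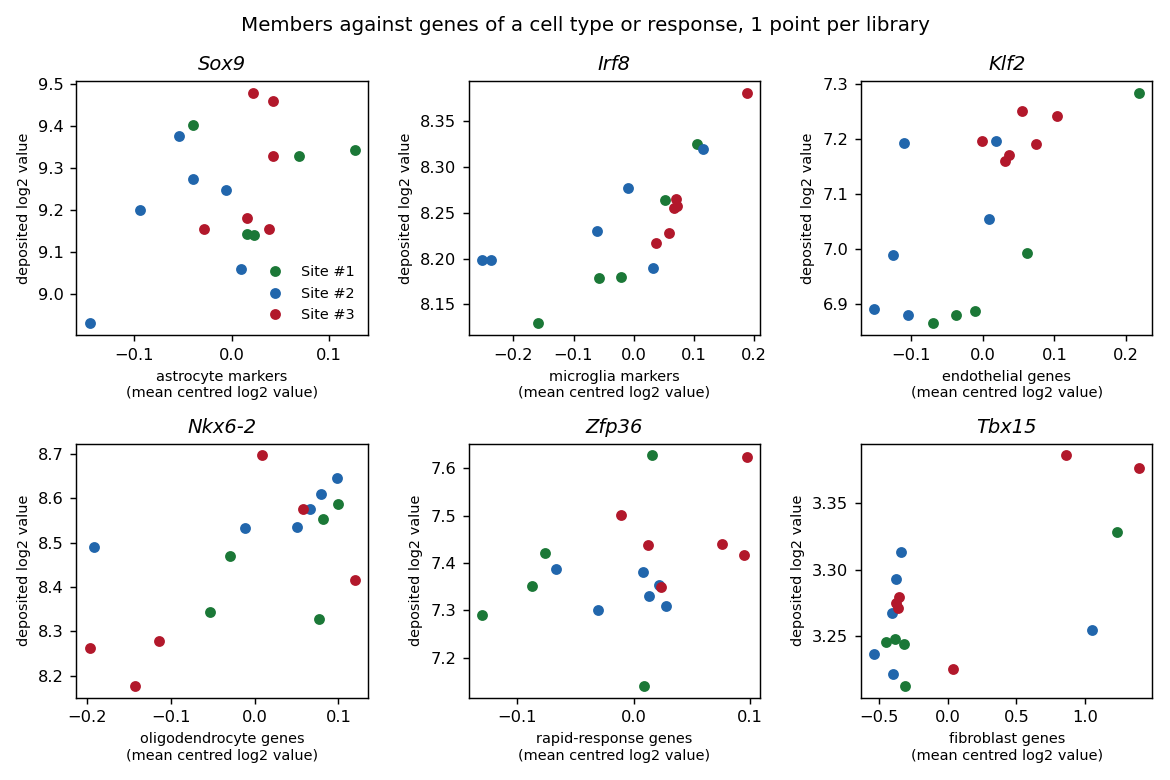
Deposited log2 value of 6 members against the mean centred log2 value of a gene list, 1 point per library, coloured by site. Irf8 rises with the microglia markers (r = 0.74), as do Klf2 with endothelial and Nkx6-2 with oligodendrocyte genes, while the Tbx15 panel is drawn out by 4 libraries with high fibroblast genes.

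Nkx6-2, a homeobox gene needed for myelination, was at 8.33, 8.34, 8.55, 8.47 and 8.59 on the log2 scale at Site #1. It ran from 8.49 to 8.65 with a median of 8.56 at Site #2, and from 8.18 to 8.70 with a median of 8.35 at Site #3. Site #3 held both the lowest and the highest library.

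Nkx6-2 differed by -0.16 log2 units from Site #2 to Site #3 (SE 0.08, limma adjusted p = 0.361). With the oligodendrocyte genes Cers2, Tf and Slc5a11 it had r = 0.62 and rho = 0.58 over 17 libraries (permutation test, adjusted p = 0.014 and 0.033 over 6 relations). Within sites r was 0.63 (permutation test, adjusted p = 0.011), and without the 2 libraries farthest from the median it was 0.66 (permutation test, adjusted p = 0.022). The 3 oligodendrocyte genes were all lower at Site #3 than at Site #2 (median log2 difference -0.05), none at an unadjusted p under 0.05 in limma. From Site #1 to Site #3, 1 was higher and 2 were lower, with a median of -0.09. The part of oligodendrocyte RNA in the Nkx6-2 difference was not tested.

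Sox9, which astrocytes express, was at 9.40, 9.14, 9.14, 9.34 and 9.33 on the log2 scale at Site #1. It ran from 8.93 to 9.38 with a median of 9.22 at Site #2, and from 9.15 to 9.48 with a median of 9.25 at Site #3. Its spread within sites was among the 5 widest of the members, and the log2 difference from Site #2 to Site #3 was 0.11 (SE 0.08, limma adjusted p = 0.573). With the 5 astrocyte markers of the study, among them Pdgfrb, known from pericytes, r was 0.43 (permutation test, adjusted p = 0.10), and 0.07 without the 2 libraries farthest from the median. Within sites r was 0.30 (permutation test, adjusted p = 0.28).

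Zfp36 was set against 8 rapid-response genes (Dusp1, Dusp5, Dusp6, Gadd45b, Gadd45g, Sgk1, Errfi1 and Nfkbiz), which, like Zfp36, are induced quickly by stimuli. Over 17 libraries r was 0.36 (permutation test, adjusted p = 0.16) and within sites 0.17 (permutation test, adjusted p = 0.51). Dusp5 was the 1 of 8 that was a DEG from Site #2 to Site #3, against 1.05% of all genes. Its log2 difference was 0.19 (limma adjusted p = 0.0460), and it was called in 5 of 22 alternatives.

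The T-box group held 6 members, and only Tbx3 was at or above 1 CPM. Tbx3, a repressor that acts in limb and mammary development, was at 6.00, 5.81, 5.98, 5.87 and 5.86 on the log2 scale at Site #1. It ran from 5.83 to 5.96 with a median of 5.89 at Site #2, and from 5.86 to 6.04 with a median of 6.00 at Site #3. All but 1 Site #3 library lay above those of Site #2.

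Tbx3 differed by 0.10 log2 units from Site #2 to Site #3 (SE 0.04, limma adjusted p = 0.246) and by 0.09 between Site #3 and the other sites (SE 0.04, limma adjusted p = 0.297). Tbx1, Tbx2, Tbx4 and Tbx21 had site means that spanned 0.0081 to 0.085 log2 units, and none reached an unadjusted p of 0.05 in limma.

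Tbx15, a gene of mesenchymal development at 0.24 mean approximate CPM, was at 3.25, 3.25, 3.21, 3.24 and 3.33 on the log2 scale at Site #1. It ran from 3.22 to 3.31 with a median of 3.26 at Site #2, and from 3.23 to 3.39 with a median of 3.28 at Site #3. The highest libraries were 2 of Site #3, and the rest overlapped. Its log2 difference between Site #3 and the other sites was 0.04 (SE 0.02, limma adjusted p = 0.555). With the fibroblast genes r was 0.66 (permutation test, adjusted p = 0.012), but rho was 0.41 (permutation test, adjusted p = 0.15), and without the 2 libraries farthest from the median r was 0.43 (permutation test, adjusted p = 0.17). The relation rests on the 4 libraries with high fibroblast genes: Tbx15 was 3.25 to 3.39 in these and 3.21 to 3.31 in the other 13, and in those 13 r was -0.20.

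Nr1h2, the only nuclear receptor among the members, encodes LXR beta, which oxysterols activate. It was at 10.81, 10.78, 10.95, 10.92 and 11.005 on the log2 scale at Site #1. It ran from 10.75 to 10.84 with a median of 10.80 at Site #2, and from 10.79 to 10.98 with a median of 10.83 at Site #3. Site #2 had the lowest mean and the narrowest range, and the log2 difference from Site #1 to Site #2 was -0.10 (SE 0.04, limma adjusted p = 0.708).

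Of 3 genes known as LXR targets, Abcg1 and Srebf1 were not called in any comparison. Apoc1 fell by 0.48 log2 units from Site #2 to Site #3 (limma adjusted p = 0.0328, called in 10 of 22 alternatives) and by 0.62 from Site #1 to Site #3 (limma adjusted p = 0.0208, 14 of 20), and was also lower against both other sites (log2 difference -0.55, limma adjusted p = 0.0026, called in 26 of 26 alternatives). Nr1h2 itself differed by -0.05 log2 units from Site #1 to Site #3 (limma adjusted p = 0.836) and by 0.05 from Site #2 to Site #3 (limma adjusted p = 0.499), so the signs were opposite and neither passed.

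Six5, next to the myotonic dystrophy kinase gene in mammals, was at 5.94, 6.06, 6.02, 6.19 and 6.15 on the log2 scale at Site #1. It ran from 5.90 to 6.03 with a median of 5.98 at Site #2, and from 5.99 to 6.18 with a median of 6.05 at Site #3. The log2 difference was -0.10 for Site #1 vs Site #2 (SE 0.05, limma adjusted p = 0.735) and 0.09 for Site #2 vs Site #3 (SE 0.04, limma adjusted p = 0.308). Six2, at 0.093 mean approximate CPM, had site means of 1.91, 1.93 and 1.93 on the log2 scale.

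Paxbp1, an adaptor that binds PAX3 and PAX7 and carries the Pax prefix without a paired domain, had the widest spread within sites of all members. It was at 10.17, 9.94, 10.04, 9.91 and 10.33 on the log2 scale at Site #1. It ran from 9.999 to 10.49 with a median of 10.15 at Site #2, and from 10.03 to 10.25 with a median of 10.11 at Site #3. The log2 difference from Site #1 to Site #2 was 0.09 (SE 0.10, limma adjusted p = 0.840).

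The true paired box genes Pax2, Pax3, Pax5 and Pax7, which pattern the embryo, were all under 0.02 mean approximate CPM. Pax2 alone among them passed an unadjusted p of 0.05, between Site #3 and the other sites, with a log2 difference of 0.0077 (limma adjusted p = 0.305). Genes under 1 CPM had a median SD within sites of 0.011 log2 units, against 0.084 for genes at or above it.

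Of the smaller families, Sox5, a factor of neuronal and glial development, had site means of 8.38 ± 0.10 (SD, n = 5), 8.24 ± 0.13 (n = 6) and 8.32 ± 0.09 (n = 6) on the log2 scale. Pou2f2, which encodes Oct-2, had 7.61 ± 0.12, 7.51 ± 0.12 and 7.59 ± 0.04, and E2f2, a cell cycle activator, 7.02 ± 0.05, 6.96 ± 0.05 and 6.95 ± 0.06. Gata3, known from T cells, and Nkx1-2 were under 1 CPM, with site means that spanned 0.0031 and 0.026 log2 units. None of these 5 reached an unadjusted p of 0.05 in limma.

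Transcription factors outside the prefixes and cofactors were read from lists as a comparison. Of 54 other transcription factors tested, 3 were DEGs from Site #2 to Site #3, all higher at Site #3, against 0.529% of all genes that were called higher. They were Grhl3, a grainyhead-like factor of epithelia (log2 difference 0.21, limma adjusted p = 0.0191, called in 19 of 21 alternatives), Sall1, known from microglia (0.19, adjusted p = 0.0235, 15 of 22), and Tshz1, a teashirt zinc finger gene (0.22, adjusted p = 0.0294, 11 of 22). Grhl3 was also called between Site #3 and the other sites (0.17, limma adjusted p = 0.0106). Of these 54 genes, 39 were higher and 15 lower at Site #3 than at Site #2, with a median log2 difference of 0.03 against 0.00015 over all genes tested. Under median centring these were 29 higher and 25 lower, with a median of 0.0025. Under quantile normalization they were 35 and 19, with a median of 0.012.

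Of 28 cofactors and chromatin regulators, 0 were DEGs in limma in any comparison. From Site #2 to Site #3 they had 10 higher and 3 lower at an unadjusted p under 0.05, against 7.24% and 7.55% of all genes, and a median log2 difference of 0.08. Under median centring it was 6 and 4, with a median of 0.06, and under quantile normalization 10 and 4, with a median of 0.07. The smallest p values were those of Cbx6, a Polycomb subunit (log2 difference 0.14, limma adjusted p = 0.0573), Cbfa2t3, a corepressor of the ETO family (0.21, adjusted p = 0.0838), both from Site #2 to Site #3, and Crebbp, a histone acetyltransferase, between Site #3 and the other sites (0.13, adjusted p = 0.0980). For the 41 members the counts from Site #2 to Site #3 were 6 higher and 3 lower, with a median of 0.0024. Under median centring they were 4 and 6, with a median of -0.022. Under quantile normalization they were 4 and 4, with a median of -0.0015. The 41 include members under 1 CPM, and the 28 expressed members alone had a median of 0.018.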

How the data were processed

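RNA-Seq libraries of 17 rat hippocampi were grouped by the site in the sample labels (5, 6 and 6). Reads were trimmed (Trimmomatic), mapped to rn6 (HISAT2) and assigned to genes (featureCounts) by the authors; the submitters' processing notes name HISAT2, featureCounts, DESeq2 and the builds rn6 and hg19. For each Ensembl gene and library the authors deposited 1 log2 value, normalized by a step not given in the sources used here. Low values lay close together between libraries, and how far the step had shrunk them was not tested. The values keep no counts, so depth is unknown, and precision is set by how many rats each site gave. Labels and methods name different library kits.

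Genes at 0 in every library (9830 of 32494) were left out. Every pair of sites had its own fit in limma (lmFit, eBayes with trend, two-sided) on the log2 values with no pseudocount, and p values were adjusted by Benjamini-Hochberg over 22664 genes. A 4th comparison set Site #3 against the other sites' mean in a fit of all 17 libraries. Differences are second site minus first. Relations used 100000 resamples of a two-sided permutation test, adjusted over 6.

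Members and lists were chosen with earlier results of these data known. Members named in full had an adjusted p under 0.05 in any comparison or an unadjusted p under 0.05 in a pair of sites, were among the 5 with the widest spread within sites, or had a planned relation; of the listed genes, those with an adjusted p under 0.05, or else the 3 with the smallest p, were named. Symbols came from part of the study's methylation lists, so further family genes were not analysed here. All 41 symbols matched RefSeq (GRCr8), which gave 30 promoters. The fits and the permutation test were tested on simulated data. Alternatives were array weights, filters, no trend, robust estimation, quantile normalization, median centring, a replicate block, 1 fit of all libraries and leaving out each library. Software was R 4.3.3 (limma 3.58.1) and Python 3.11.15; tables used pandas 2.3.3 and numpy 2.4.6, permutation tests scipy 1.17.1, plots matplotlib 3.10.9.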

Additional observations from a re-analysis of the deposited data

Results flagged for a closer look

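In each site, the highest or lowest library of each member was compared with its nearest neighbour by Dixon's criterion. It singled out 15 values, in 9 libraries, among 123 groups of a member and a site, where chance gives about 6.15. Of these, 10 were in the 13 members under 1 approximate CPM and only 5 in the 28 at or above it. The low members had a median SD within sites of 0.020 log2 units, so their flagged values differ little from the others. The chance figure assumes normally distributed values, which was not tested.

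Among members of at least 1 CPM, Irf8 was at 8.381 on the log2 scale in Site #3 replicate 4, where the others of the site lay between 8.22 and 8.27. In that library the microglia markers were also the highest of all, with a mean centred log2 value of 0.19. Tbx3 was at 5.856 in Site #3 replicate 1, against 5.99 to 6.04 in the others. Zfp780b-ps1 was at 7.7852 in Site #1 replicate 4, Zfp787 at 8.3892 in Site #3 replicate 4 and Zfp958 at 7.91 in Site #1 replicate 5.

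Among members under 1 CPM, Gata3 was at -0.1954 in Site #1 replicate 2 and Tbx21 at -0.3297 in Site #1 replicate 5. Pax2 was at -1.1002 in Site #1 replicate 4 and -1.0934 in Site #2 replicate 5, Pax3 at -1.7534 in Site #3 replicate 1, and Pax5 at -1.7634 in Site #3 replicate 2. Pax7 was at -1.3961 in Site #1 replicate 5 and -1.4189 in Site #3 replicate 3, and Six2 at 2.0144 in Site #2 replicate 3 and 2.0326 in Site #3 replicate 2.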

How the results depend on the processing

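The number of members called in Site #2 vs Site #3 was 1 and fell to 0 with no filter on genes at 0, with the replicate block (Zfp94, limma adjusted p = 0.0746), with all libraries in one fit (0.0532), and without both Site #2 replicates 3 and 4 (0.159); leaving out 1 library gave 0 to 3. For Site #3 vs Sites #1 and #2 it was 1, and 0 with no filter and without those 2 libraries; leaving out 1 library gave 0 to 2. It was 0 to 1 for Site #1 vs Site #3 and 0 to 0 for Site #1 vs Site #2. The relation of Klf2 with endothelial genes lost its call at r = 0.56 without the 2 libraries farthest from the median, and that of Tbx15 at rho = 0.41 and r = 0.43. Of 164 differences (41 members, 4 comparisons), 66 changed sign in at least 1 alternative, 1 of them with an unadjusted p under 0.05 (Pax2) and none with an adjusted p under 0.05. Among the differences given in the report, the sign turned for Klf12 in Site #2 vs Site #3 (-0.018 without both Site #2 libraries), Zfp958 in the same pair (0.0098 without Site #3 replicate 3, and -0.083 to 0.0098 over all libraries left out in turn) and Pax2 (-0.0070 with median centring), none of them called. The cause was not tested.

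Same-numbered libraries come from different rats. Their deviations correlated between -0.46 and 0.39, with means of -0.0034, -0.17 and 0.03 for the 3 pairs of sites. Differently numbered libraries were not set beside these, so whether an equal number stands for a shared step of handling was not tested. Apart from Zfp94 in Site #2 vs Site #3, the replicate block changed no member's call. Over all genes, DEGs of Site #2 vs Site #3 (120 higher, 119 lower) were 235 and 247 among genes of at least 1 CPM, 86 and 72 with no filter, 22 and 21 with the block, 45 and 28 without both libraries, and 73 and 160 with median centring; leaving out 1 library gave 81 to 333 in all. Those of Site #1 vs Site #3 (11 and 12) were 8 and 14 with quantile normalization, 17 and 19 in one fit and 0 and 0 with the block, and 9 to 30 in all without 1 library. Those of Site #3 vs the other sites (91 and 83) were 169 and 170 with array weights, 51 and 54 with no filter, 34 and 28 with the block and 48 and 47 without both libraries, and 78 to 224 in all without 1 library.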
